A study of Homo sapiens with 3 samples.

Results

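The genes described here build and read the mitotic spindle: the kinesins, the centromere proteins, the spindle checkpoint and the kinases and complexes that work with them. Members were all genes with a probe set of their own on the array whose symbol is KIF followed by a number or CENP followed by a letter, with 18 further genes listed by name. There were 74 members (38 KIF genes, 18 CENP genes and the 18 listed genes) among 19775 genes with a probe set of their own. Gene expression was measured in SupB15, a human B-cell precursor acute lymphoblastic leukemia line labelled drug sensitive (1 array), and in SupB15-MR, a multiple drug resistant derivative of it (2 arrays). Both were grown in RPMI1640 with serum and without drug when RNA was taken. SupB15-MR cells are the survivors of mitoxantrone treatment in medium conditioned by bone marrow stromal cells, so that selection, clonal origin and resistance come together in every comparison. The labels give the SupB15-MR arrays as biological replicates and name MR5 for the second, and the study describes its SupB15-MR arrays as clones. The comparison asks how the expression of mitotic and motor genes differed between the sensitive line and its resistant derivative.

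Kinesins are motors that walk along or take apart microtubules, and only some of them act in mitosis, while others carry vesicles, organelles or ciliary cargo. At mitosis the centromere, marked by the histone variant CENP-A, carries the constitutive centromere network, a set of CENP proteins on which the outer kinetochore with the NDC80 complex is built. Spindle microtubules bind to NDC80, and the checkpoint kinases and their partners hold back anaphase until every chromosome is attached. Most of these mitotic genes are known to be transcribed in G2 phase through CHR (TTTGAA) and CCAAT promoter elements, so that in a culture their RNA level also follows the share of dividing cells. With RNA from whole cultures, fewer cells in mitosis and less RNA per cell cannot be told apart.

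Those 2 elements were looked for in the promoters, from 250 bases before to 50 after the start, taken from RefSeq (GRCh38.p14), which held a promoter for 61 of the 74 members. Both strands were searched, and the elements may overlap. TTTGAA was found in 24 of the 61 members (39.3%) and in 18.2% of all 27305 genes with a promoter, and CCAAT in 57.4% of the members and 39.7% of all. Both together were found in 31.1% of the members and in 7.26% of all genes. Among mitotic kinesins 8 of 14 held TTTGAA, and among the other kinesins 1 of 19. Shown are the 120 bases before the start of 4 members that carry TTTGAA there and moved in different directions: CDCA8 (chr1:37692396-37692515, plus strand) and KIF15 (chr3:44761674-44761793, plus strand) were lower in SupB15-MR, and INCENP (chr11:62123891-62124010, plus strand) and MKI67 (chr10:128126424-128126543, minus strand) higher on their most intense probe sets, although another probe set of MKI67 was called lower. Capitals mark TTTGAA and CCAAT on either strand, and each is printed 5′ to 3′ on the strand of the gene.
CDCA8: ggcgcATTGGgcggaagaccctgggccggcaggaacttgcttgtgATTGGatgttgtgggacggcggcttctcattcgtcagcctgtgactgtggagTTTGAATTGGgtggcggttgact
INCENP: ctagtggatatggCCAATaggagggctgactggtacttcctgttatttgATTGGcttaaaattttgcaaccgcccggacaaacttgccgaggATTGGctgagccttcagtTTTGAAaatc
MKI67: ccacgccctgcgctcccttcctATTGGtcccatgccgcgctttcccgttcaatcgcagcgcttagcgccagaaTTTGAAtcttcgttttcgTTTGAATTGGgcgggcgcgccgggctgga
KIF15: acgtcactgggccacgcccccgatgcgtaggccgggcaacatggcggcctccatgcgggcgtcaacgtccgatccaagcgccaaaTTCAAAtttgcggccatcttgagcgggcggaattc
CDCA8 and MKI67 share the run TTTGAATTGG, in which the 2 elements overlap by their shared A, and KIF15 holds TTTGAA on the other strand and no CCAAT in the stretch shown. Members with TTTGAA lay on both sides. Of the 24 tested with it, 4 were higher and 6 lower by at least 2-fold in each SupB15-MR array (median log2 difference -0.10), and of the 36 without it 4 were higher and 7 lower (median -0.09). For CCAAT, 6 were higher and 6 lower of the 35 tested with it (median -0.20), and 2 higher and 7 lower of the 25 without it (median 0.0). Over all genes 14.5% were 2-fold higher and 15.1% lower.

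Values are log2 RMA values, 1 per probe set and array, so that a difference of 1 is 2-fold. A gene was read on its most intense probe set, the one with the highest mean of both group means, and differences are SupB15-MR minus SupB15. A gene was called when it differed by at least 2-fold with an adjusted p from limma no higher than 0.05. Because SupB15 has 1 array, the standard errors and p-values measure only the spread between the 2 SupB15-MR arrays, which may be technical, and nothing is known of how SupB15 cultures vary. For that reason, the count of genes that differed by at least 2-fold from SupB15 in each SupB15-MR array, which uses no test, is given beside the calls. Of the 74 members, 73 passed the filter on low values. The exception was KIF2B, a kinesin of the microtubule-depolymerising family, at 3.28 in SupB15 and 2.72 in both SupB15-MR arrays.

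Members went both ways, in about equal numbers of calls under the settings described above. Of 73, 9 were called higher (12.3%, against 10.6% of all 17531 genes) and 10 lower (13.7%, against 9.81%). At least 2-fold in both arrays without a test, 10 were higher (13.7%, against 14.5% of all genes) and 16 lower (21.9%, against 15.1%). A 1-way analysis of variance without moderation, which has 1 residual degree of freedom, called none of them after adjustment, with 36 of 106 member probe sets (34.0%) and 24.4% of all 27745 in that fit 2-fold apart at an unadjusted p up to 0.05. The median difference of the members was -0.11 and that of all genes 0. The SupB15-MR arrays as deposited have a median over all probe sets that is 0.19 above that of SupB15, and with the arrays centred on their medians 7 members were called higher and 15 lower, and with quantile normalization 7 and 13. Without the filter on low values, or when the probe set was picked by its mean over all 3 arrays, 9 were called higher and 8 lower. With the mean over all probe sets of a gene these were 10 and 9. With probe sets of identical SupB15-MR values left out, 9 were called higher and 15 lower. With a variance prior from differing probe sets these were 10 and 17, and on the probe set with the highest value in SupB15 6 and 14. Thus which side had more calls depended on the setting, and the higher side led only narrowly where it did. Counted over all 147 member probe sets tested, more were higher, with 28 called higher (19.0%, against 13.1% of all probe sets) and 19 lower (12.9%, against 9.71%), or 28 and 29 with centred arrays and 28 and 25 with quantile normalization. Without a test, 33 probe sets were at least 2-fold higher (22.4%, against 18.3%) and 29 lower (19.7%, against 15.0%). For the calls under other normalizations, filters, priors and choices of probe set, the shares over all genes and probe sets were not counted. Those counts therefore cannot be read against the shares given here.

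**Figure D1:**
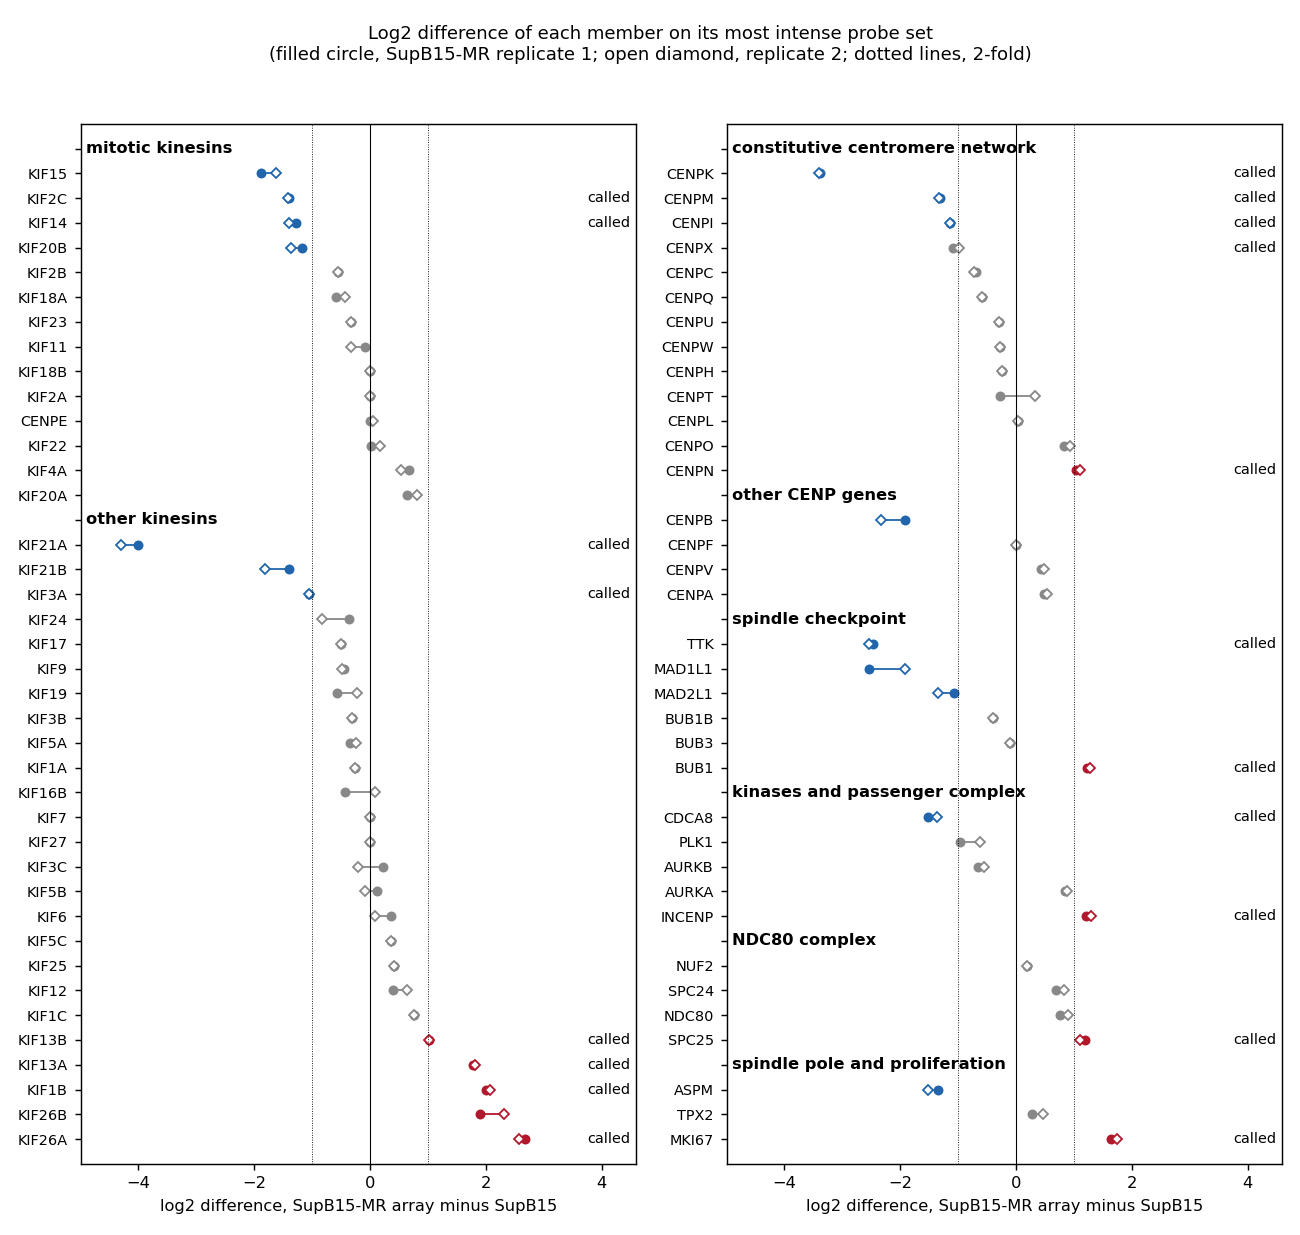
Log2 difference from SupB15 (x axis) of each of the 74 members on its most intense probe set, grouped by role, with SupB15-MR replicate 1 as a filled circle and replicate 2 as an open diamond, red or blue where both were higher or lower by 2-fold or more. The 19 members marked "called" passed the limma test, KIF2B was not tested, and no mitotic kinesin reaches 2-fold on the higher side.

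**Figure D2:**
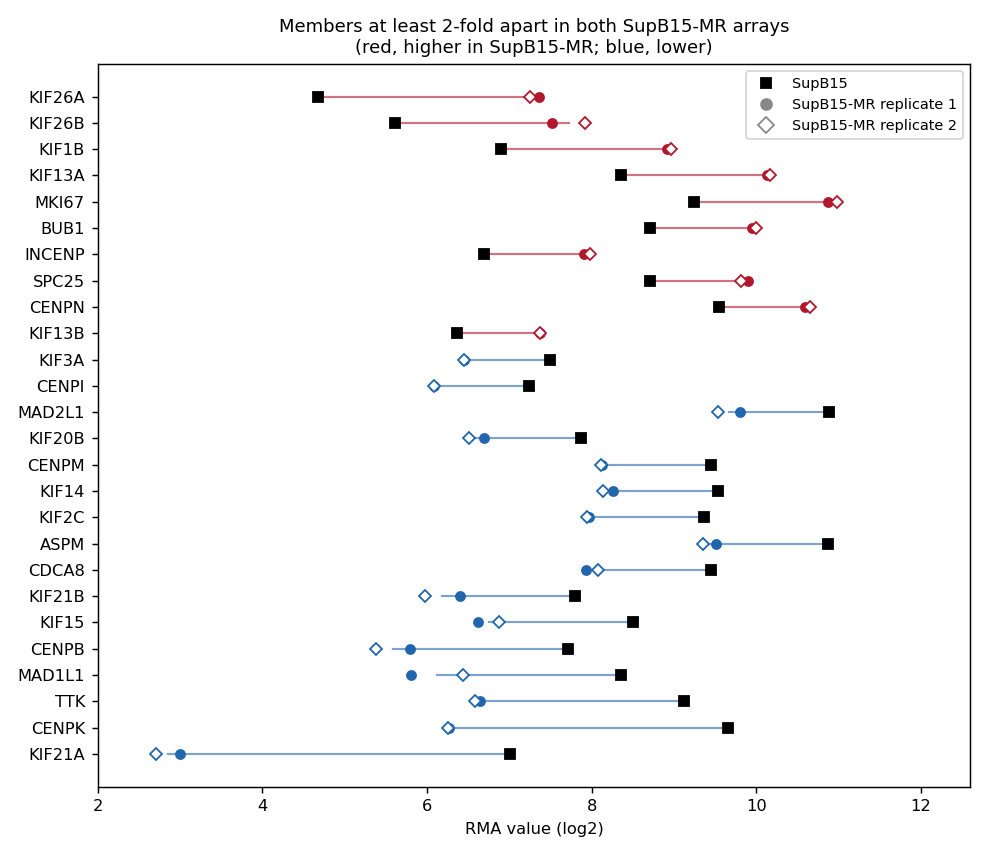
RMA value (log2, x axis) of the 26 members that differed by at least 2-fold in each SupB15-MR array, with SupB15 as a black square and the SupB15-MR replicates as a circle and an open diamond, joined to SupB15 by a line to their mean. Of these 10 lie above SupB15 and 16 below, from KIF26A at the top to KIF21A at the bottom.

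Among the 13 mitotic kinesins tested, 2 were called lower and none higher, 4 were at least 2-fold lower in both arrays, and the median difference was -0.20. Over all genes 9.81% were called lower and 15.1% were 2-fold lower. KIF2C (also MCAK), which takes microtubules apart at centromeres, was 9.37 in SupB15, with 7.96 and 7.94 in SupB15-MR, a difference of -1.41 (SE 0.0130, adjusted p = 0.0050 by limma). Both SupB15-MR arrays lay well below SupB15 on this probe set, but its other probe set read 8.64, 8.38 and 8.61 and differed by -0.14, and with the probe set of the highest mean over all 3 arrays the gene was not called. KIF14, needed for the end of cytokinesis, fell on both of its probe sets. It was 9.54 in SupB15, with 8.26 and 8.13 in SupB15-MR (difference -1.34, SE 0.0935, adjusted p = 0.043), and 8.96 against 6.77 and 6.82 on the other (-2.17). KIF15, a spindle motor that can stand in for KIF11, was 8.50 in SupB15, with 6.62 and 6.88 in SupB15-MR (-1.76, SE 0.198), and it did not pass the test as deposited (adjusted p = 0.069) but did with arrays centred (0.024) or quantile normalized (0.035). KIF20B, which acts at the end of cytokinesis, was 7.87 against 6.69 and 6.51 (-1.27, adjusted p = 0.067). Its other probe sets differed by -1.89 (called lower) and by 0.61, the latter at 5.71 in SupB15 and 6.32 in both SupB15-MR arrays.

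The other mitotic kinesins differed by less than 2-fold. KIF11 (Eg5), the motor that separates the spindle poles, was 10.27 in SupB15, with 10.19 and 9.95 in SupB15-MR. CENPE, which brings chromosomes to the spindle equator, was 8.26, 8.26 and 8.30, so that all 3 arrays were close together. KIF4A, a chromosome-bound motor, was 8.81 against 9.47 and 9.34 (0.60), and KIF20A (MKLP2), a cytokinesis motor, 7.77 against 8.41 and 8.58 (0.72), both above SupB15 in both arrays without passing the test. KIF23 (MKLP1), a central spindle motor, was 7.61 and 7.28 in both SupB15-MR arrays on its most intense probe set (-0.33) and 5.61 against 3.80 and 3.45 on the other (-1.99). KIF2A and KIF18B had 1 and the same value in all 3 arrays.

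Of the 25 other kinesins, 4 were called higher and 2 lower, 5 were at least 2-fold higher in both arrays and 3 lower, and the median difference was 0. Over all genes 10.6% were called higher and 9.81% lower, and 14.5% were 2-fold higher and 15.1% lower. The kinesins with the largest differences on either side belong here. KIF21A, a motor that also damps microtubule growth, was 7.01 in SupB15, with 2.997 and 2.705 in SupB15-MR (-4.16, SE 0.221, adjusted p = 0.033), below the filter value of 3.47 in both SupB15-MR arrays. On its other probe set KIF21A was close to that value in all arrays, at 3.39 in SupB15 and 3.68 and 3.57 in SupB15-MR (0.23, not called). Its relative KIF21B was 7.80 against 6.40 and 5.98 (-1.61, adjusted p = 0.12, not called). KIF26A and KIF26B, an unconventional pair thought to lack motor activity, moved the other way. KIF26A was 4.68 in SupB15, with 7.36 and 7.26 in SupB15-MR (2.63, SE 0.0746, adjusted p = 0.017) and was also higher on its other probe set (3.66). KIF26B was 5.62 against 7.52 and 7.92 (2.10, adjusted p = 0.088, called at 0.043 with arrays centred), and 2 of its 3 probe sets were over 2-fold higher while 1 had the same value in all.

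KIF1B, which carries synaptic vesicle precursors and mitochondria, was 6.90 in SupB15, with 8.91 and 8.97 in SupB15-MR (2.04, SE 0.0413, adjusted p = 0.012). All 4 of its probe sets were higher, by 0.87 to 3.995. On the one with the highest value in SupB15 (7.40 against 8.19 and 8.33, 0.87, adjusted p = 0.072) it was not called. KIF13A, an endosome motor, was 8.35 against 10.12 and 10.17 (1.79, adjusted p = 0.010). Its 6 probe sets ran from -0.15 to 5.85, and on the last of these SupB15 read 4.30 and SupB15-MR 10.06 and 10.24. KIF13B, of the same family, was 6.36 in SupB15 and 7.38 in both SupB15-MR arrays (1.02), just inside the 2-fold threshold and under it with arrays centred (0.82) or quantile normalized (0.91). KIF3A, a subunit of the kinesin-2 motor that builds cilia, split by probe set: the most intense read 7.498 and then 6.45 in both SupB15-MR arrays (-1.05, called lower), the other 5.42 and then 7.38 in both (1.96, called higher). Its partners KIF3B (-0.31) and KIF3C (0.00) did not reach 2-fold on their most intense probe sets, and neither did KIF5B, the widely used conventional kinesin heavy chain (11.04, 11.15 and 10.96). On other probe sets KIF3C was 6.92 against 5.72 and 5.83 (-1.15, called lower) and KIF5B 7.36 against 8.97 and 8.92 (1.58, called higher).

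Of the 13 constitutive centromere network genes tested, 4 were called lower and 1 higher (9.81% and 10.6% of all genes). By at least 2-fold in both arrays, 3 were lower and 1 higher (15.1% and 14.5% of all genes), and the median difference was -0.30. CENPK, which is read by 1 probe set, was 9.66 in SupB15, with 6.27 and 6.25 in SupB15-MR, a difference of -3.39 (SE 0.0126, adjusted p = 0.0018 by limma). CENPI, which forms a subcomplex with CENPH, CENPK and CENPM, was 7.23 in SupB15 and 6.09 in both SupB15-MR arrays (-1.15). CENPM was 9.45 against 8.13 and 8.11 (-1.33, adjusted p = 0.0050). In all 3 the SupB15-MR arrays lay close together and below SupB15. CENPH, the remaining gene of that subcomplex, was 8.47 and then 8.23 in both arrays (-0.24). The CENPI call rests on 1 of 4 probe sets, since the next was 6.54 in SupB15 and 6.56 in both SupB15-MR arrays (0.03) and another was 3.15 against 4.27 and 4.56 (1.27).

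CENPX, which pairs with CENPS in a DNA-binding complex, was 9.94 in SupB15, with 8.85 and 8.96 in SupB15-MR (-1.04, SE 0.0783, adjusted p = 0.046), and it stayed under 2-fold in the second SupB15-MR array and over the adjusted threshold without the filter on low values (0.052). CENPN, which recognises the CENP-A nucleosome, was called higher. It was 9.55 in SupB15, with 10.59 and 10.65 in SupB15-MR (1.07, SE 0.0499, adjusted p = 0.029). All 4 of its probe sets were higher, 3 of them by more than 2-fold, up to 2.14, although the difference on the most intense was 0.88 with arrays centred and 0.99 with quantile normalization, under the threshold. CENPO, from another subcomplex, was 8.79 against 9.62 and 9.73 (0.88, not called) and 5.96 and then 7.19 in both arrays on its other probe set. CENPT, which links the network to NDC80, had its SupB15-MR arrays on either side of SupB15 on the most intense probe set (6.98 in SupB15, 6.70 and 7.31) and was 2.51 higher on the other. CENPU was 10.57 and then 10.27 in both arrays (-0.30), and it was higher on both other probe sets (1.61 and 1.70).

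None of the 4 other CENP genes was called. CENPB, which binds the CENP-B box of centromeric satellite DNA, was 7.72 in SupB15, with 5.79 and 5.38 in SupB15-MR (-2.13, SE 0.306, adjusted p = 0.088), and both arrays were more than 2-fold lower. With arrays centred it was called (adjusted p = 0.035). CENPA, the histone of the centromere, was 6.74 against 7.21 and 7.28 (0.51). CENPF, an outer kinetochore protein of G2 and mitosis, had the value 11.23 in all 3 arrays on its most intense probe set and 8.63 in all on another. Its remaining probe set was 4.57 in SupB15, with 2.66 and 2.81 in SupB15-MR (-1.83, called lower).

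The spindle checkpoint genes were split, with 1 of 6 called lower and 1 called higher (9.81% and 10.6% of all genes). In both arrays 3 were at least 2-fold lower and 1 higher (15.1% and 14.5% of all genes), and the median difference was -0.80. TTK (MPS1), the kinase that starts the checkpoint signal, was 9.12 in SupB15, with 6.64 and 6.58 in SupB15-MR, a difference of -2.51 (SE 0.0504, adjusted p = 0.012 by limma). The SupB15-MR arrays were 0.067 apart, far less than their distance from SupB15. MAD1L1 (MAD1), the kinetochore anchor of MAD2, was 8.36 against 5.81 and 6.44 (-2.24, SE 0.473). Its SupB15-MR arrays were 0.626 apart, the widest gap on any member's most intense probe set, and it was not called (adjusted p = 0.13). MAD2L1 (MAD2), part of the inhibitor of the anaphase-promoting complex, was 10.88 against 9.81 and 9.54 (-1.21, adjusted p = 0.10). It was lower on all 3 of its probe sets, with 10.28 against 8.66 and 8.63 (-1.63) and 7.05 against 5.05 and 4.82 (-2.11) on the others, and both of these were called.

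BUB1B (BUBR1), a second part of that inhibitor, was 10.08 in SupB15 and 9.69 in both SupB15-MR arrays (-0.39). BUB3, which carries BUB1 and BUB1B to kinetochores, was 11.56 and then 11.45 in both (-0.11) on its most intense probe set, and 4 of its 5 other probe sets lay between -0.59 and 0.01. The remaining one was 5.38 in SupB15, with 10.75 and 11.003 in SupB15-MR (5.49). BUB1, the kinase that docks the checkpoint at kinetochores, was 8.71 against 9.94 and 9.99 (1.25, SE 0.0363, adjusted p = 0.018) and was called higher. Its 5 probe sets gave no single direction: the one with the highest value in SupB15 was 9.74 against 8.88 and 8.80 (-0.90), another was 5.03 against 3.18 and 2.72 (-2.08), and a further one was 5.35 against 10.77 and 10.83 (5.45).

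Of the 5 mitotic kinase and chromosomal passenger genes, 1 was called higher and 1 lower (10.6% and 9.81% of all genes). Both are partners of the kinase Aurora B. INCENP, the scaffold of the chromosomal passenger complex, was 6.70 in SupB15, with 7.90 and 7.98 in SupB15-MR (1.25, SE 0.0626, adjusted p = 0.031). CDCA8 (borealin), a targeting subunit of the same complex, was 9.44 against 7.93 and 8.07 (-1.44, SE 0.108, adjusted p = 0.046, and 0.051 without the filter on low values). Each was read by 1 probe set. AURKB (Aurora B) itself was 9.76 against 9.11 and 9.20 (-0.61, adjusted p = 0.070), and 6.55 against 6.90 in both arrays on its other probe set. AURKA (Aurora A), the spindle pole kinase, was 9.35 against 10.20 and 10.23 (0.87, adjusted p = 0.016), above SupB15 in both arrays but under 2-fold. Its other probe sets were 0.20 and 1.71 higher. PLK1, the polo kinase of mitotic entry, was 8.24 against 7.26 and 7.61 (-0.80, SE 0.263, adjusted p = 0.20).

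All 4 NDC80 complex genes lay above SupB15 in both SupB15-MR arrays as deposited, with a median difference of 0.80, and 1 was called higher (10.6% of all genes). The share of all genes above SupB15 in both arrays was not counted, and the array medians were themselves 0.19 higher in SupB15-MR. SPC25 was 8.71 in SupB15, with 9.90 and 9.81 in SupB15-MR (1.15, SE 0.0671, adjusted p = 0.036), and 0.96 with arrays centred, under the threshold. SPC24, its partner at the inner end of the complex, was 7.66 against 8.35 and 8.48 (0.76, adjusted p = 0.079) and 6.74 against 7.95 and 8.35 on its other probe set (1.41). NDC80 (HEC1), a microtubule-binding subunit, was 9.65 against 10.41 and 10.55 (0.83, adjusted p = 0.077). NUF2, its partner, was 9.40 and then 9.59 in both arrays (0.19), a difference the size of the shift between array medians. With arrays centred it differed by 3.5e-05.

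Of the last 3 members, TPX2, which activates Aurora A on the spindle, was 10.31 against 10.58 and 10.77 (0.37, adjusted p = 0.24). MKI67, which encodes the Ki-67 proliferation antigen, was called higher on its most intense probe set, at 9.24 in SupB15 and 10.87 and 10.98 in SupB15-MR (adjusted p = 0.029). Its other 3 probe sets did not share that difference. They read 9.11 against 9.81 and 9.85 (0.72), 8.56 against 7.98 and 7.95 (-0.59), and 9.56 against 8.50 in both SupB15-MR arrays (-1.06, called lower), so that the direction for MKI67 depends on the probe set. ASPM, a spindle pole protein, was 10.87 against 9.51 and 9.35 (-1.44, SE 0.118, adjusted p = 0.051) on its most intense probe set, 6.004 against 8.44 and 8.08 on another (2.26) and 4.68 against 9.11 and 9.08 on the third (4.42). With the mean over its probe sets ASPM was called higher (1.75, adjusted p = 0.044).

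**Figure D3:**
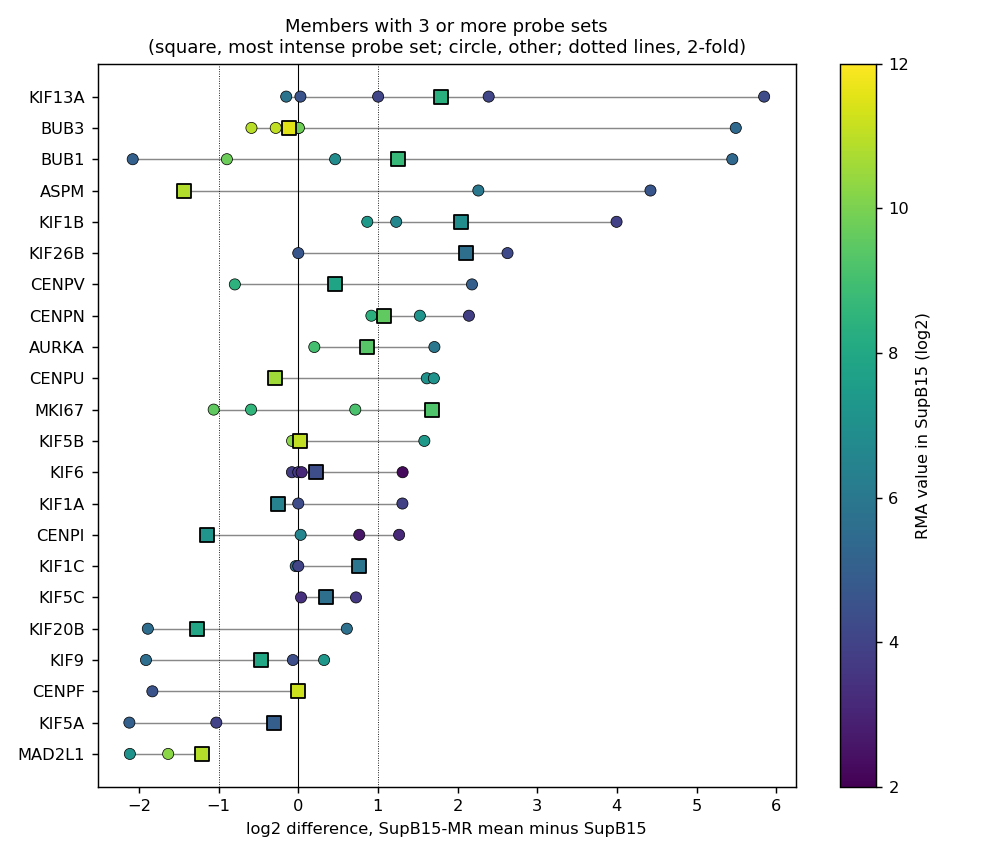
Log2 difference, SupB15-MR mean minus SupB15 (x axis), of every probe set of the 22 members with 3 or more, with the most intense as a square, the others as circles and the colour giving the RMA value in SupB15. MAD2L1 lies below -1 on all 3 probe sets, while BUB1, ASPM, MKI67 and CENPI have probe sets beyond 2-fold on both sides.

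Probe sets of 1 gene often gave different values. Of 40 members with several probe sets, 5 (ASPM, BUB1, CENPI, KIF3A and MKI67) had probe sets at least 2-fold apart in both directions (12.5%, against 8.11% of all genes with several probe sets). KIF14 and MAD2L1 were at least 2-fold lower on every probe set, and KIF26A higher on every one. In 16 members a probe set other than the most intense was at least 2-fold apart where the most intense was not, among them KIF16B (7.15 in SupB15, 4.02 and 4.25 in SupB15-MR, -3.01) and CENPV (4.99 against 7.13 and 7.22, 2.18). In 32 of the 74 members no probe set was 2-fold apart in both arrays. Of the most intense probe sets of the 40 members, 7 (17.5%) were higher by at least 2-fold and 8 lower, and of their 74 other tested probe sets 31.1% were higher and 17.6% lower. Over all genes these shares were 16.1% and 15.6% for the most intense and 21.9% and 14.4% for the others. The 4 largest rises of any member probe set (KIF13A, BUB3, BUB1 and ASPM, all over 16-fold) were on probe sets other than the most intense of their gene.

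**Figure D4:**
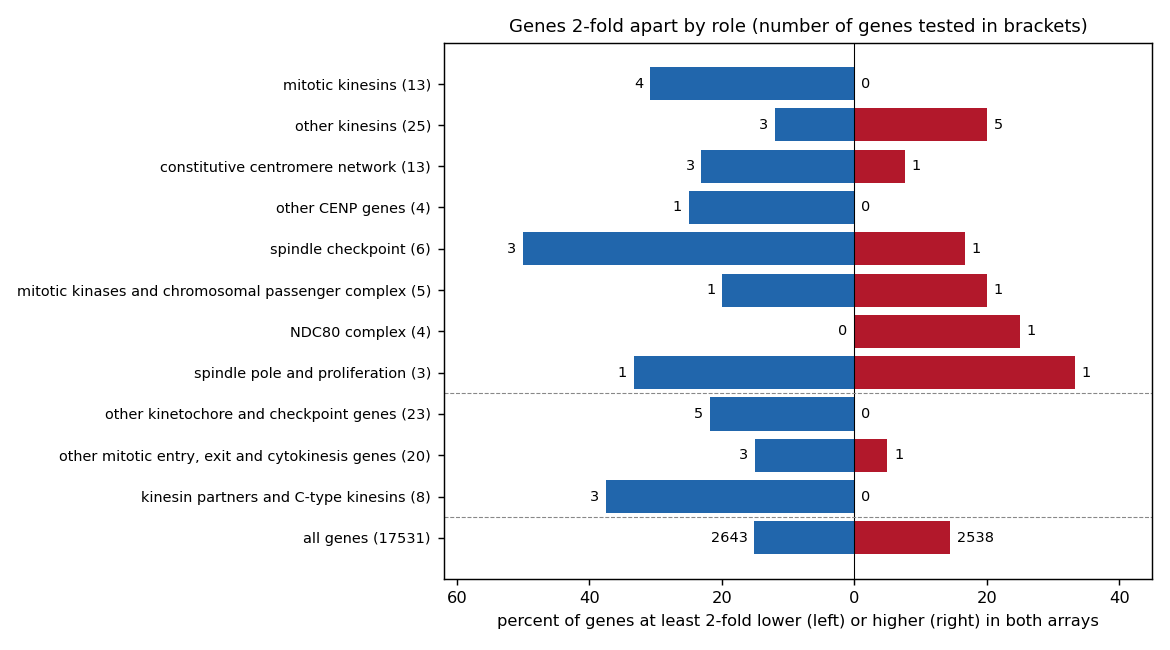
Percent of the genes tested in each list (x axis, numbers of genes tested in brackets) that were lower (blue, left) or higher (red, right) by at least 2-fold in each SupB15-MR array, with their number at the end of each bar. Below the dashed lines stand 3 lists of related genes that are not members and all 17531 genes.

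Related genes that are not members were counted for comparison. Of 23 other genes of the kinetochore, centromere loading and checkpoint, none was called higher and 5 were called lower (SKA1, SGO1, OIP5, MAD2L1BP and SPDL1). Over all genes 10.6% were called higher and 9.81% lower. The median difference of the 23 on their most intense probe sets was -0.59 beside 0 for all genes. The mean over probe sets was above 0 where the most intense was below for KNL1 (-1.06 and then 1.26), NSL1 (-1.45 and 0.89), MIS18A, SGO2, SGO1 and SPDL1. For SKA2 it went the other way (0.96 and -0.07). SKA1, which couples kinetochores to shrinking microtubules, was 8.18 in SupB15 and 6.49 in both SupB15-MR arrays. Of 20 other genes of mitotic entry, exit and cytokinesis, CCNB1 was called higher and CCNB2, NUMA1 and MYBL2 lower (median -0.33). Several lower calls in both lists were not shared by all probe sets of the gene. NUMA1 had 2 of 5 probe sets at least 2-fold higher in both arrays, and CCNB2, SGO1 and SPDL1 had 1 each. The mean difference over probe sets was 0.70 for NUMA1, 0.32 for CCNB2 and SGO1, and 0.11 for SPDL1. SKA1, OIP5, MAD2L1BP and MYBL2 have 1 probe set each. MYBL2, a subunit of the activator of G2 genes, was 9.18 against 6.99 and 7.05 (-2.16). FOXM1, its partner in that activation, was 8.61 and then 8.32 in both. Of 8 kinesin light chains, adaptors and C-type kinesins, 1 was called lower (KLC3) and none higher. The light chains KLC2, KLC3 and KLC4 were at least 2-fold lower in both arrays (15.1% of all genes), while KLC1 differed by 0.42. KLC3 has 3 probe sets, and its mean difference over them was -0.14.

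These measurements touch the whole series. Of the probe sets kept, 39.7% had the same value in the SupB15-MR pair (27.9% of the members') and 10.0% in all 3 (8.16% of the members'), and for those limma's residual spread is 0. Of the 19 members called, 3 (CENPI, KIF3A and KIF13B) have such identical pairs. The identical values also enter limma's variance prior, which is applied to every probe set. Its SD was 0.00102 with 0.313 degrees of freedom, and 0.169 with 17.1 when they were left out. Calls of members without identical pairs, such as MAD1L1 and MAD2L1, also differed between these fits. The control probe sets also moved with the groups: 18S ribosomal RNA was 7.49 and 7.43 higher in the SupB15-MR arrays, and the 5′ probe set of ACTB differed by -1.77 and -1.62 while its 3′ probe set was 0.02 and 0.00 higher. For GAPDH both ends were lower, with differences of -1.43 and -1.33 at the 3′ probe set and -1.24 and -1.12 at the 5′. Their part in the differences was not tested. Summed linear intensity of 14 B-precursor markers was 38230 in SupB15, with 27714 and 26117 in SupB15-MR, with DNTT between 13.2 and 13.4 in all arrays. Of these markers 2 were called higher, RAG2 (3.32) and MME (1.54), and 4 lower, VPREB1, VPREB3, IGLL1 and CD24. VPREB1, a surrogate light chain gene, was at 10.49 in SupB15, with 4.22 and 3.94 in SupB15-MR. At least 2-fold in both arrays, 3 of these markers were higher, with RAG1 (2.03, not called) as the third, and 6 were lower. For 12 stromal markers the sums were 3067, 409 and 430, for 9 T and NK cell markers 311, 197 and 190, and for 7 myeloid markers 230, 408 and 263. Among the myeloid markers MPO (6.18 against 8.20 and 7.30) and LYZ (1.21) were at least 2-fold higher in both arrays and CSF1R lower (-2.29). COL6A3 makes up most of the stromal sum in SupB15 (11.2, against 2.91 and 3.31), and of the 12 markers 4 (COL6A3, SPARC, THY1 and DCN) were at least 2-fold lower in both arrays and 1, COL5A1, higher (2.05, not called). SPARC differed by -3.27 and was called lower, and THY1 by -3.22, while the stromal genes LUM and POSTN stayed below the filter value in all 3 arrays. The part of other cells in the differences was not tested.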

How the data were processed

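Arrays of SupB15 (1) and SupB15-MR (2) were compared. The authors purified total RNA, labelled it with a NuGEN Ovation system, and hybridised it to an Affymetrix U133 array. The deposited values are log2 expression values, which the authors normalised and summarised with RMA, for 54675 probe sets. The number of probe sets and the annotation are those of the U133 Plus 2.0 array. There is no depth on an array, and precision is limited by having 3 of them.

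Probe sets were named from the platform annotation: 41097 have 1 gene, 1801 several and 11777 none. Probe sets with several genes were not used for members. Those with all 3 values at or below the 20th percentile (3.47) were removed (8641), which left 46034. Differences were fitted with limma 3.58.1 in R 4.3.3 (1 residual degree of freedom), adjusted by Benjamini-Hochberg over all kept probe sets. A call required a 2-fold difference and an adjusted p no higher than 0.05. The fitting code was tested on simulated data with known changes. Members, lists and tests were chosen with earlier results of these data known. Genes named were all members called or 2-fold apart in both SupB15-MR arrays and the 18 listed genes; other members and genes were named after their values were seen.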

Additional observations from a re-analysis of the deposited data

How the results depend on the processing

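Of 36 named members, 34 kept their direction and side of the threshold without the filter on low values, 27 with arrays centred on their medians, 31 with quantile normalization, 22 of 30 with identical probe sets left out and 28 with a variance prior taken only from differing probe sets. Direction reversed for CENPI (0.0295 with the highest mean over all 3 arrays, 0.23 with the mean over its probe sets), for KIF3A (0.45), ASPM (1.75, called higher) and BUB3 (0.75) with that mean, and for BUB1 (-0.90) and MKI67 (-1.06) on the probe set with the highest value in SupB15. The median difference of the members was -0.14 without the filter, -0.30 with arrays centred, -0.12 with quantile normalization, -0.085 with identical probe sets left out, -0.30 on the probe set with the highest value in SupB15, and 0.0 on that with the highest mean over all 3 arrays or with the mean over probe sets. Member probe sets called lower rose from 19 to 29 with arrays centred and 31 with the prior from differing probe sets, which also called 17 genes lower in place of 10. With arrays centred ASPM, CENPB, KIF15, KIF20B, KIF26B and MAD2L1 gained a call and CENPN, KIF13B and SPC25 lost it. The cause of these changes was not tested. Genes called lower were 15 with arrays centred or with identical probe sets left out. At 4-fold, 12 member probe sets were called higher and 6 lower, and 2 and 3 genes. Shares over all probe sets and genes were not counted for these settings. A 1-way ANOVA without moderation called 0 probe sets and 0 genes in either direction after adjustment, with 36 member probe sets and 6778 of all 2-fold apart with an unadjusted p up to 0.05. It left out probe sets with identical SupB15-MR values. The methods of the study name an ANOVA but not its form, and its comparison also held cells in conditioned medium. The ANOVA given here is therefore not the test of the study. Without either SupB15-MR array no test was possible, the genes 2-fold higher were 10 and 10, those lower 16 and 17, and the median -0.11 both times. No paired analysis was possible because the groups share 1 replicate number only.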

Other observations

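Of the probe sets that a member symbol shares with another gene, which were left out above, the one of SLC35F6 and CENPA was 9.35 in SupB15, with 10.29 and 10.28 in SupB15-MR (0.93). It cannot be assigned to either gene. Those of CENPS with CENPS-CORT (8.71, 8.71 and 8.72) and of CENPP with LOC100128361 (6.43, 6.39 and 6.43) differed little between the arrays.

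KIFC1, a minus-end directed kinesin that focuses spindle poles, was 8.60 in SupB15, with 9.60 and 9.79 in SupB15-MR (1.09, adjusted p = 0.077 by limma). BIRC5 (survivin), the fourth subunit of the chromosomal passenger complex, was 10.30 against 11.20 and 11.25 (0.93), above SupB15 in both arrays as INCENP was and CDCA8 was not. PTTG1 (securin), the inhibitor of separase, was 10.98 against 11.85 and 11.89 (0.89), and ESPL1 (separase) was 8.53 against 7.84 and 7.81 (-0.70). These genes were named after their values were seen.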
